A study of Aconitum carmichaelii with 4 samples.

Results

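The root library of Aconitum carmichaelii was set against the flower, bud and leaf libraries, to describe which unigenes (assembled transcripts) were more or less abundant in the underground tissue than in each of the 3 aerial tissues. The unigenes compared were those longer than 500 bases with at least 40 fragments summed over the 4 libraries. These were 29670 of the 128183 unigenes of the assembly, and they came from 20910 Trinity genes, the groups of isoforms made by the assembler. They held 91.6% of the root fragments and between 88.1% and 92.8% of the fragments of each aerial library. The fragment sum included root, so a unigene with few aerial fragments could pass through its root fragments. The 13 unigenes with 0 fragments in all 3 aerial libraries passed in this way. So did every unigene with under 40 aerial fragments in all, which holds for several of the high unigenes named below. No difference between tissues was used in the choice.

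All tissues came from 3-year-old, untreated plants of one plant material, grown in natural conditions at Tsukuba in Japan and harvested in the same month. One library each was made from Flower, Bud, Leaf and Root, so there were no replicates. The number of plants behind a library was not given in the sources used here. Without replicates, differences were not tested across plants and no p-value was computed. Libraries held between 4811266 fragments in root and 7057551 in flower. In whole tissue, fewer cells of a type and less RNA per cell cannot be told apart.

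Aconitum species are known for aconitine-type diterpene alkaloids, which accumulate in the tuberous root. Their carbon skeleton is built from isopentenyl diphosphate (IPP), made in the cytosol by the mevalonate (MVA) pathway and in plastids by the methylerythritol phosphate (MEP) pathway. Geranylgeranyl diphosphate synthase (GGPPS) joins these units, copalyl diphosphate synthase (CDPS) and kaurene synthase (KS) close the rings, and cytochrome P450 enzymes and transferases decorate the product. Roots also take up nitrate, sulfate and phosphate, while leaves and green buds carry out photosynthesis.

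Levels are FPKM (fragments per kilobase of effective length, scaled to library size), computed with library totals multiplied by TMM factors (trimmed mean of M values, which set the bulk of unigenes equal between libraries). A unigene was called high in root when its root level was at least 2-fold above each of the 3 aerial levels and the exact 95% interval of each ratio excluded 1. It was called low in root under the mirrored rule. Ratios are followed by this interval in brackets. The intervals cover counting error only, because PCR copies and differences between plants are not covered. A library with 0 fragments was set to 3 fragments for a ratio, which is then a bound. Isoforms of one Trinity gene share sequence, so their levels are uncertain relative to each other.

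Of the 29670 unigenes, 2895 were called high in root, which is 9.76%, and 3051 were called low, which is 10.3%. On the deposited TPM scale, 1685 were high (5.68%) and 4964 were low (16.7%). The high calls thus made up 48.7% of all calls on the TMM scale and 25.3% on the TPM scale. The difference came from a constant for each library, since TMM placed root 0.43 higher against flower, 0.54 higher against bud and 0.39 higher against leaf than TPM did, in log2 units. All 1685 unigenes high by TPM were also high by TMM, all 3051 low by TMM were also low by TPM, and 0 changed direction. This follows from the constants, which all raise root and are smaller than the 2-fold minimum, and is no separate evidence. The plot of root against the highest aerial level shows both groups.

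**Figure D1:**
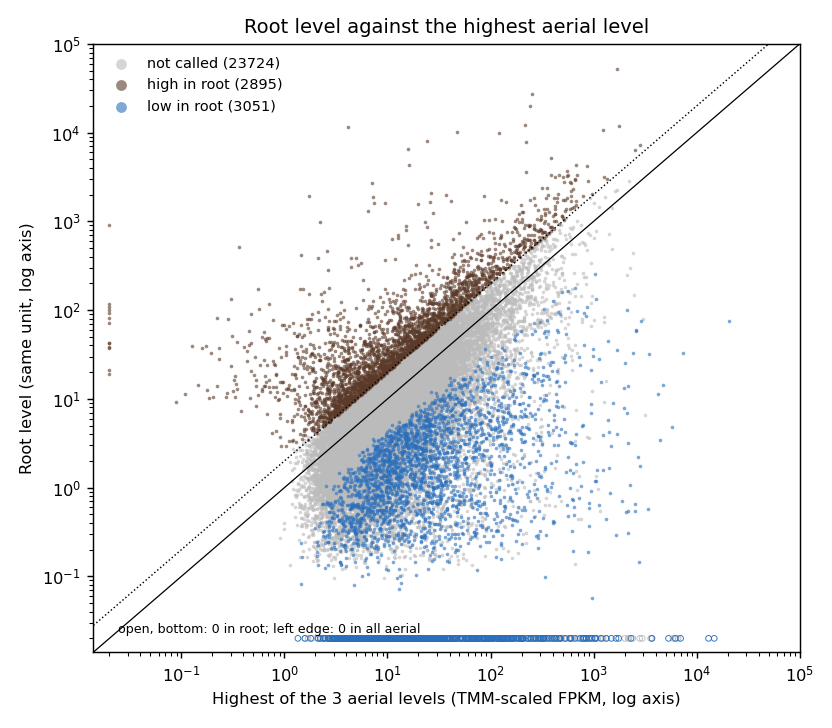
Each point is 1 of the 29670 unigenes, with its highest aerial level on the horizontal axis and its root level on the vertical axis, both in TMM-scaled FPKM on log axes. The solid line marks equal levels and the dotted line a 2-fold higher root level, brown points are the 2895 unigenes high in root and blue points the 3051 low in root, and open circles at the bottom have 0 root fragments.

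Root was the highest of the 4 libraries for 8470 unigenes (28.5%) and the lowest for 10946 (36.9%). By TPM these counts were 5355 (18.05%) and 14644 (49.4%). The median log2 ratio of root to the highest aerial library was -0.81 on the TMM scale and -1.28 by TPM. Against the lowest aerial library it was 0.44 on the TMM scale and close to 0 (-0.0047) by TPM. These medians were taken separately, so they do not place a single unigene within the aerial range. On the TMM scale root ranked 2 of 4 for 15.8% of unigenes and 3 of 4 for 18.8%. By TPM these shares were 13.4% and 19.2%. Root thus lay between the aerial levels for a minority of unigenes on both scales.

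Large differences were a minority of the calls. Root exceeded every aerial library at least 10-fold for 339 unigenes and at least 100-fold for 44. It fell at least 10-fold below every aerial library for 550 unigenes and at least 100-fold below for 43. No root fragment was counted for 1849 of the 29670 unigenes, and 490 of these were called low. Root alone lacked fragments for 1262 unigenes, against 612 for leaf, 78 for bud and 44 for flower, and 13 unigenes had fragments in root only. Root was the shallowest library, with 4811266 fragments against 5400853 in leaf.

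The same rule was applied with each library in turn against the other 3. On the TMM scale, flower was above the others for 1393 unigenes, bud for 1739, leaf for 2833 and root for 2895. Flower was below the others for 201 unigenes, bud for 590, leaf for 1651 and root for 3051. Root and leaf thus had close counts of unigenes above the rest, and root had the most below the rest. By TPM, the leaf had 2853 unigenes above the others and the root 1685, so the order of leaf and root depended on the scale. For unigenes below the others root was first on both scales, with 4964 by TPM against 1471 for leaf.

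The unigenes high in root took up 54.8% of the root fragments, and 12.7%, 11.8% and 9.43% of the fragments of flower, bud and leaf. Those low in root took up 1.06% of the root fragments and 18.2%, 16.7% and 41.2% of the flower, bud and leaf fragments. All 20 unigenes with the highest root levels were called high, and so were 92 of the top 100. In the root library the 10 most abundant unigenes held 17.6% of the fragments and the first alone held 6.23%. The leaf library was more concentrated, as its 10 most abundant unigenes held 20.7% and the first alone 15.6%.

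The 4 unigenes named here without a description in the annotation used here stood at these extremes. TR46488|c3_g1_i1 (1720 bases) had 21689 fragments in flower, 11992 in bud and 4318 in leaf against 299594 in root, and its root level was 30.8-fold (30.4 to 31.2) that of flower. TR33060|c1_g1_i1 (635 bases) had 422, 401, 555 and 47673 fragments in the same order, and its root level was 108-fold (99.7 to 118) that of leaf. In both, all 3 aerial libraries lay far below root. Among unigenes low in root, TR43559|c0_g1_i1 (8896 bases) had 842454 fragments in leaf, 312375 in bud and 74492 in flower against 2466 in root. Its lowest aerial level, in flower, was 13.6-fold (13.0 to 14.1) the root level, and its leaf level was 273-fold the root level. TR38022|c2_g1_i2 (642 bases) had 11428, 5835, 3337 and 133 fragments in flower, bud, leaf and root, and the lowest aerial level, in bud, was 19.8-fold (16.7 to 23.7) that of root.

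The aerial levels of the unigenes high in root lay close together. Their median ratio of the highest to the lowest aerial level was 1.82, and 56.6% had aerial levels within 2-fold of each other. Over all 29670 unigenes the median ratio was 2.23 and 43.7% lay within 2-fold. For the unigenes low in root the median ratio was 2.58 and 37.5% lay within 2-fold, with leaf the highest aerial library for 51.7% of them. Leaf was the highest aerial library for 36.7% of all unigenes. The call rule bears on this spread, because a unigene with 1 high aerial library could hardly exceed all of them, and so it is given as a description.

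The unigenes high in root had a median root level of 40.8 and median aerial levels of 7.05 in flower, 7.30 in bud and 7.30 in leaf. Those low in root had median aerial levels of 10.3, 9.41 and 13.8 in the same order and of 1.18 in root. Calls were more frequent among abundant unigenes, where intervals are narrow. Of the 9233 unigenes with up to 100 summed fragments, 6.88% were high and 4.18% low. Of the 1143 with over 3000, 28.4% were high and 19.9% low. Length mattered less, with 10.3% high among unigenes of up to 1000 bases and 7.73% among those over 3000 bases.

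Of the Trinity genes, 5993 had at least 2 isoforms among the compared unigenes. A high call was present in 829 of them and covered every isoform in 350. A low call was present in 935 and covered every isoform in 315. Only 12 held both a high and a low isoform. One of these had a description, the group TR44553, with an annotation cut short at nitrate. Its isoform TR44553|c0_g1_i1 had 70, 44, 50 and 0 fragments in flower, bud, leaf and root, while TR44553|c0_g1_i2 had 75, 54, 104 and 224. The second isoform was 2.70-fold (2.13 to 3.44) higher in root than in leaf, the first was at least 6.63-fold lower in root than in bud, and the isoform TR44553|c0_g1_i4 was not called.

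The pathway unigenes are the 52 that the study assigned to MVA, MEP and later steps, and 40 of them met the length and fragment minimum. Of the 15 MVA unigenes compared, 2 were high in root and 3 low. Of the 14 MEP unigenes, 0 were high and 1 was low, and of the 11 later ones 3 were high and 2 low. The high shares were 13.3% for MVA, 0 for MEP and 27.3% for the later steps, on few unigenes each, beside 9.76% over all unigenes, and 10.3% of all unigenes were low. The 3 high unigenes of the later steps met the fragment minimum only through their root fragments. By TPM the counts were 0 high and 3 low for MVA, 0 and 3 for MEP and 3 and 3 for the later steps. With DESeq2 size factors they were 5 and 1 for MVA, 0 and 1 for MEP and 4 and 2 for the later steps, so the MVA counts depended on the scaling. The 12 unigenes not compared had under 40 fragments and comprised AACT2, HMGS1, DXS1 to DXS7, GGPPS3, GGPPS7 and CDPS1. Among them DXS1, DXS2, DXS4 and DXS5 had most of their few fragments in root, with 15, 26, 11 and 21 there. The study placed these in its cluster of unigenes highly expressed in root. DXS3, DXS6 and DXS7 had 0, 2 and 0 root fragments. The MEP counts thus leave out unigenes that leaned to root.

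In the MVA pathway unigenes of the first and the third step were among the high ones and those of the second step were low. AACT3, an acetoacetyl-CoA thiolase that joins acetyl units, had levels of 23.4 in flower, 25.7 in bud and 15.5 in leaf against 52.6 in root. Its root level was 2.04-fold (1.63 to 2.55) that of bud, and it was not called by TPM. HMGR3, a reductase isoform of the rate-limiting step of the pathway, had levels of 27.5, 32.7, 6.68 and 79.4 in the same order and was 2.43-fold (2.16 to 2.73) higher in root than in bud. It too was not called by TPM. HMGR1 and HMGR2, from the same Trinity gene, stood at 1.93-fold above bud, just under the minimum fold, and all 3 were lowest in leaf.

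HMG-CoA synthase (HMGS) unigenes went the other way. HMGS3 had levels of 10.3 in flower, 47.3 in bud and 5.08 in leaf against 1.51 in root, the lowest aerial level being 3.37-fold (1.60 to 7.92) that of root. HMGS2, an isoform of the same Trinity gene, had 6.47, 37.2, 4.02 and 1.08, and its leaf level was 3.71-fold (1.04 to 20.1) that of root on 3 root fragments. HMGS4 had 20.7, 22.5, 18.8 and 8.94, with leaf 2.11-fold (1.56 to 2.88) above root. Bud was the highest library for all 3, and root the lowest. With DESeq2 size factors 1 MVA unigene was called low in place of 3. The thiolase AACT1, from another Trinity gene than AACT3, also peaked in bud, with levels of 11.5, 37.7, 0.544 and 1.71, but root was not below leaf. The other compared MVA unigenes (AACT4, HMGR1, HMGR2, the kinases MVK and PMK1 to PMK3, and the decarboxylases MVDD1 and MVDD2) were not called.

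Among the compared MEP unigenes only ISPE, the kinase of the fourth step, was called. Its levels were 9.46 in flower, 7.96 in bud and 16.8 in leaf against 2.13 in root, and bud was 3.74-fold (1.99 to 7.76) above root. DXS9, a synthase of the first step, had levels of 43.5, 32.7, 72.1 and 16.7 and missed the 2-fold minimum at 1.96-fold below bud. DXR, the second enzyme, had 90.9, 16.9, 67.8 and 10.7, with root lowest but near bud. Both were called low by TPM. ISPG, a late enzyme of the pathway, had a root level of 218, on the TMM scale the highest of the 4 and 1.12-fold (1.06 to 1.19) above the leaf level. By TPM its root value was 0.853 of the leaf value, so its order depended on the scale. DXS10 peaked in flower at 203, which was 6.83-fold (6.01 to 7.78) above the root level of 29.7, and it was not called because root was not the lowest library.

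The later steps held the widest root differences among the pathway unigenes. KS1 had 4 fragments in flower, 7 in bud and 1 in leaf against 135 in root, with levels of 0.504, 0.889, 0.224 and 37.9. Its root level was 42.7-fold (20.2 to 108) that of bud, the highest aerial library. KS2 had 3, 20, 0 and 213 fragments, and its root level was 23.6-fold (14.9 to 39.3) that of bud and at least 89.1-fold that of leaf. CDPS4, which acts before KS, had 14, 6, 5 and 112 fragments and levels of 0.772, 0.333, 0.490 and 13.8, and was 17.8-fold (10.2 to 33.7) higher in root than in flower. For these 3 unigenes every aerial level was below 2 and every root level above 13, on both scales called high.

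KS3 and GGPPS4 showed the opposite order. KS3 had levels of 6.98 in flower, 32.2 in bud and 15.6 in leaf against 0.811 in root, and flower was 8.60-fold (3.83 to 23.9) above root. GGPPS4 had 12.5, 5.37, 12.2 and 1.41, with bud 3.81-fold (1.74 to 9.89) above root. CDPS2 and CDPS3, from different Trinity genes, were highest in leaf at 30.6 and 15.5, while root stood at 0 fragments and at 2.19. They were not called, because their flower levels of 1.03 and 1.25 were not above root beyond counting error. GGPPS1 had the highest root level of its family, 129 against 59.0 to 65.9 in the aerial libraries, 1.96-fold (1.75 to 2.19) above flower and so just under the minimum fold. The members of each enzyme family thus differed in their tissue order, as the plot of pathway levels shows.

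**Figure D2:**
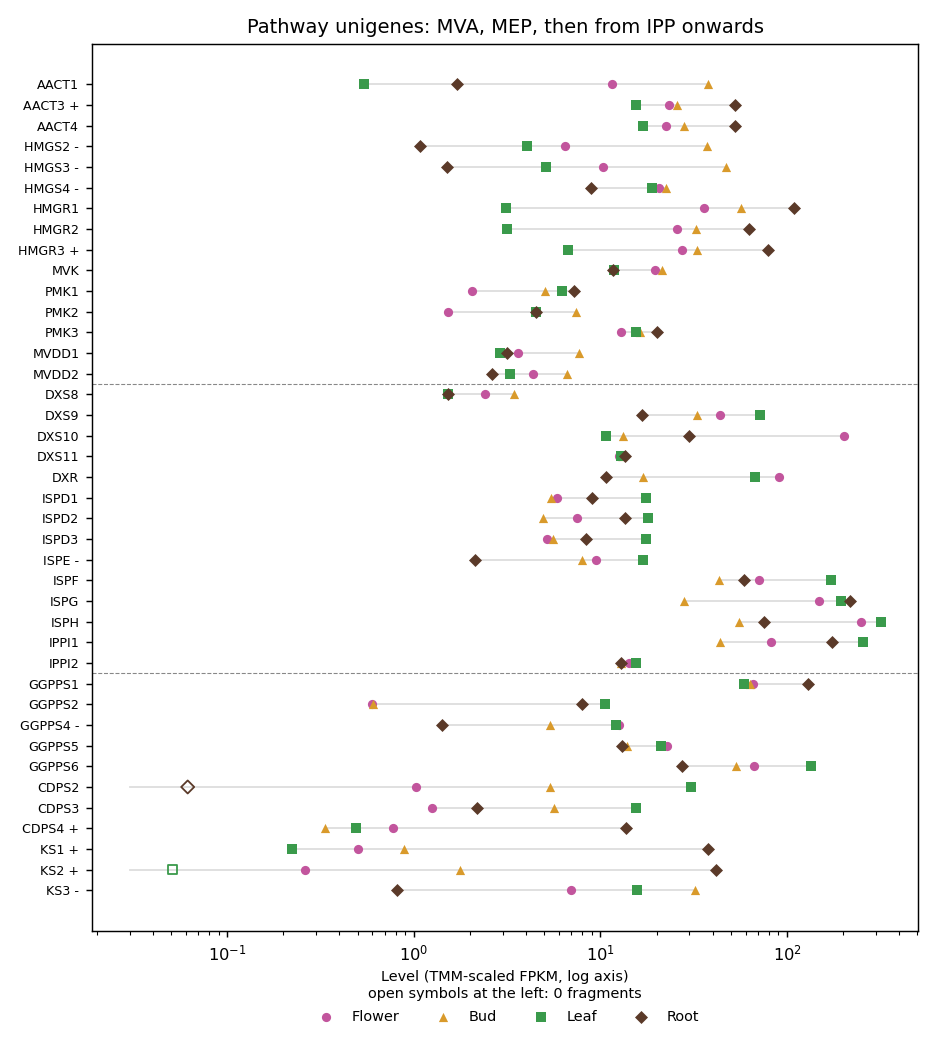
Levels of the 40 compared pathway unigenes in the 4 libraries (horizontal log axis, TMM-scaled FPKM), from the MVA pathway at the top through MEP to the steps after IPP, with + for called high and - for called low in root. KS1, KS2 and CDPS4 have root diamonds far to the right of every aerial symbol, while KS3 and the HMGS unigenes have them to the left.

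Cytochrome P450 enzymes are haem enzymes that oxidise specialised metabolites. The study listed 21 P450 unigenes that were highly expressed in root and highly correlated with CDPS4 and KS2 in these same data. Their direction, and their likeness to CDPS4 and KS2, are thus not independent evidence. Of the 17 that were compared, 15 (88.2%) were high and 0 low on the TMM scale, beside 9.76% and 10.3% of all unigenes. By TPM 13 were high, beside 5.68% of all unigenes. The other 2, TR43943|c1_g3_i2 with an interval of 0.922 to 4.52 and TR45846|c2_g1_i3 at 1.78-fold (1.14 to 2.80), were highest in root without meeting the rule. The 4 left out had between 5 and 25 summed fragments.

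Within this list the size of the difference varied widely. TR34564|c0_g1_i1, described as P450 82A3-like, had 1 fragment in flower, 10 in bud and 7 in leaf against 404 in root, and its root level of 67.8 was 72.4-fold (34.8 to 181) that of leaf. TR34774|c0_g1_i1, also 82A3-like, had 4, 9, 5 and 191 fragments, and its root level of 68.3 was 47.0-fold (24.2 to 104) that of bud. The 71A1-like TR45117|c1_g1_i1 had 9, 1, 5 and 108 fragments, with root 26.8-fold (13.6 to 60.2) above flower. In these 3 unigenes the aerial levels were all under 2. TR46599|c0_g3_i1 was 12.4-fold (7.12 to 23.2) higher in root than in leaf and TR45571|c1_g2_i1 was 10.7-fold (7.58 to 15.3) higher than in flower. TR26655|c1_g1_i1 was also 10.7-fold higher (4.37 to 31.5), on 29 root fragments. Of the unigenes in this paragraph, all but TR45571|c1_g2_i1 met the fragment minimum only through root.

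The 6 compared unigenes whose identifiers begin with TR47900 had leaf as the highest aerial library. TR47900|c2_g2_i6, the most abundant, had levels of 4.77 in flower, 9.84 in bud and 42.3 in leaf against 154 in root, and was 3.65-fold (2.94 to 4.55) higher in root than in leaf. The others ranged from 2.98-fold to 8.20-fold, and bud came nearest to leaf in TR47900|c0_g2_i1, with levels of 10.5 and 18.4. TR45117|c1_g1_i3 was 8.90-fold (6.73 to 11.9) higher in root than in flower. The smallest called differences were those of TR43949|c0_g1_i3 at 2.17-fold (1.67 to 2.82) and TR32515|c0_g1_i1 at 2.11-fold (1.45 to 3.11), and neither was called by TPM.

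Another 82A3-like group had the reverse order. TR40144|c3_g1_i5 had 1633 fragments in flower, 72 in bud and 53 in leaf against 0 in root, and the bud level was at least 10.9-fold the root level. TR40144|c3_g1_i2 had 1951, 32, 73 and 0 fragments. All 4 compared isoforms of this group were low in root and highest in flower, with at most 1 root fragment each. Unigenes with the same description thus lay at both ends of the root comparison.

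Descriptions or pathway names from the paper's annotation, of which a part was used here, covered 896 of the compared unigenes. An informative description was present for 762. Of the 896, 115 (12.8%) were high in root and 84 (9.38%) low, beside 9.76% and 10.3% of all unigenes. They include the study's own P450 list, chosen partly for root expression, with 15 of 17 high. The high share is thus raised by that choice. The described unigenes farthest from the aerial libraries were of several kinds. On the high side they included a methyltransferase, Bet v 1 and major latex-like proteins, late embryogenesis proteins, 82A3-like P450 unigenes and KS1. On the low side they included heat shock proteins, a metallothionein, transporters, an 82A3-like P450, a FRUITFULL (FUL) unigene and an N-transferase.

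**Figure D3:**
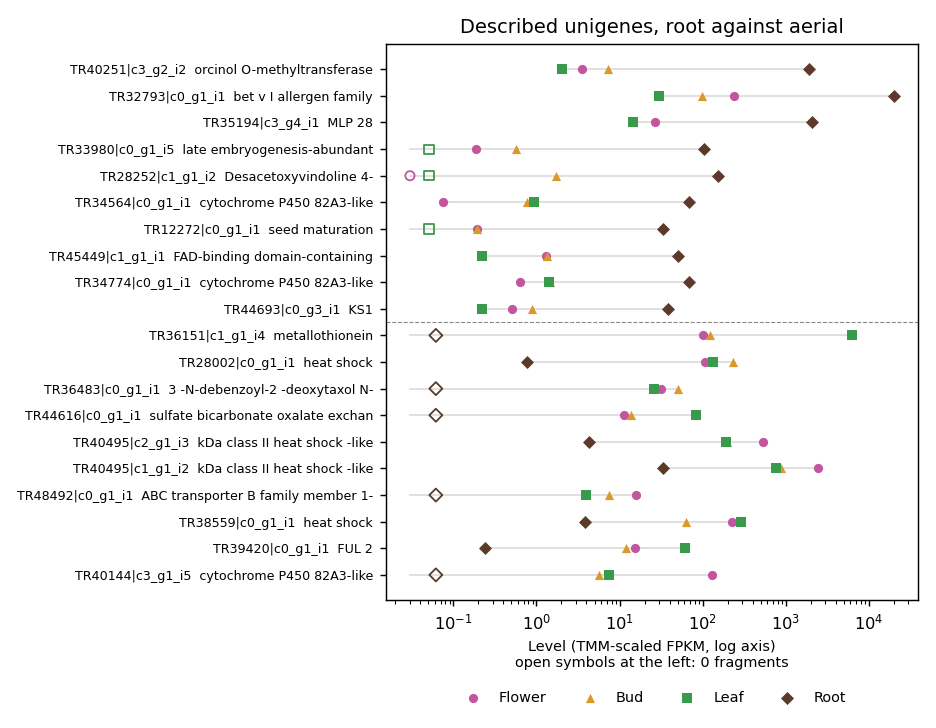
Levels in the 4 libraries (horizontal log axis, TMM-scaled FPKM) of the 10 described unigenes high in root and the 10 low in root with the widest separation from the aerial libraries by interval limit, 1 per Trinity gene. Above the dashed line root is right of all aerial symbols, from 38.4-fold for TR45449|c1_g1_i1 to 264-fold for TR40251|c3_g2_i2, and below the line it is left of them or at 0 fragments (open symbols). KS1, TR33980|c0_g1_i5, TR12272|c0_g1_i1, TR28252|c1_g1_i2, TR34564|c0_g1_i1 and TR34774|c0_g1_i1 met the fragment minimum only through root.

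O-methyltransferases transfer methyl groups to hydroxyls of small molecules. TR40251|c3_g2_i2, described as orcinol O-methyltransferase, had 40 fragments in flower, 81 in bud and 13 in leaf against 9663 in root. Its root level of 1903 was 264-fold (212 to 333) that of bud. TR40251|c3_g2_i5 was 169-fold (131 to 221) and TR40251|c3_g2_i3 was 41.2-fold (36.4 to 46.8) higher in root than in leaf. These 3 are isoforms of 1 Trinity gene. The only other unigene of this description, TR32830|c0_g3_i1, was highest in flower at 105, with 4.18 in root and 0.624 in leaf, and was not called.

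Bet v 1 and major latex-like proteins are small proteins that bind hydrophobic ligands and include pathogenesis-related members. TR32793|c0_g1_i1, described as of the bet v I allergen family, had levels of 241 in flower, 98.0 in bud and 29.5 in leaf against 20238 in root. Its root level was 84.0-fold (78.0 to 90.4) that of flower and the highest root level of any described unigene. The major latex-like TR35194|c3_g4_i1 had 26.4, 14.5, 14.5 and 2080 and was 78.9-fold (62.9 to 100) higher in root than in flower. They rested on 27666 and 2711 root fragments. Flower was the highest aerial library in each.

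Late embryogenesis abundant proteins are hydrophilic proteins known from drying seeds and water-stressed tissue. TR33980|c0_g1_i5 had 1, 3, 0 and 251 fragments in flower, bud, leaf and root, which gave 185-fold (62.7 to 904) above bud. TR12272|c0_g1_i1, a seed maturation protein, had 1, 1, 0 and 78 fragments, 173-fold (30.1 to 6907) above bud. The wide intervals came from the few aerial fragments. TR39303|c1_g1_i2, a BURP domain protein, had the second-highest root level among described unigenes when 1 isoform per Trinity gene is counted, with 45.1 in flower, 55.5 in bud and 600 in leaf against 2208 in root. It was 3.68-fold (3.46 to 3.91) higher in root than in leaf.

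Metallothioneins are cysteine-rich proteins that bind metal ions, and their unigenes split by tissue. TR36151|c1_g1_i4 had 317 fragments in flower, 376 in bud and 10865 in leaf against 0 in root, so the lowest aerial level, in flower, was at least 47.2-fold that of root. Its isoform TR36151|c1_g1_i3 had 296, 351, 9865 and 0. By contrast TR36151|c0_g4_i2 had levels of 1009 in flower, 134 in bud and 304 in leaf against 1621 in root. That was 1.61-fold (1.53 to 1.69) above flower, so it was highest in root without meeting the rule. It still had the fifth-highest root level of the described unigenes counted in this way.

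Further described unigenes belong with the high calls. TR28252|c1_g1_i2, with a description cut short at desacetoxyvindoline 4-, had 0, 12, 0 and 477 fragments in flower, bud, leaf and root and was 88.0-fold (49.9 to 171) higher in root than in bud. TR45449|c1_g1_i1, a protein with a FAD-binding domain, had 21, 21, 2 and 365 fragments and was 38.4-fold (24.8 to 62.8) higher in root than in bud. Acyltransferases of the BAHD type attach acyl groups to alcohols and amines. TR36483|c0_g1_i1, described as a debenzoyl-deoxytaxol N-transferase, had 380, 607, 175 and 0 fragments, and leaf was at least 46.5-fold above root. Of the 4 compared unigenes of this type 3 (75%) were low in root and 0 high, beside 10.3% and 9.76% of all unigenes. With DESeq2 size factors 2 were low. The high unigene TR28252|c1_g1_i2 was left out of this list after its values were seen, because its description is cut short, and with it the list would have 1 high.

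Heat shock proteins are chaperones made in response to heat and other stress. Of 18 compared unigenes from 13 Trinity genes, 11 were low in root (61.1%) and 0 high, and the counts by TPM were also 11 and 0. Over all unigenes 10.3% were low on the TMM scale and 16.7% by TPM. Their median log2 ratio of root to the highest aerial library was -3.62, beside -0.81 over all unigenes. TR28002|c0_g1_i1 had 612 fragments in flower, 1309 in bud and 430 in leaf against 2 in root, and flower was 137-fold (37.8 to 1134) above root. The class II small heat shock unigene TR40495|c1_g1_i2 had levels of 2432, 881, 761 and 32.9, with leaf 23.1-fold (17.6 to 31.0) above root. TR40495|c2_g1_i3, of another group, was 44.8-fold (22.5 to 104) and TR38559|c0_g1_i1 was 16.7-fold (10.8 to 27.1) lower in root than in the lowest aerial library.

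The heat shock unigenes that were not called included the larger and more evenly expressed chaperones. TR39814|c0_g2_i1, described as heat shock 101, had levels of 5.62, 7.90, 8.28 and 13.8 in flower, bud, leaf and root. TR43222|c6_g2_i3 had 176, 272, 206 and 295, and TR42385|c4_g6_i1, described as heat shock 70, had 226, 349, 336 and 348. On the TMM scale root was above the top of the aerial range in the first and second, and within counting error of it in the third. By TPM root was 1.21-fold the highest aerial value for the first, 0.750 of it for the second and 0.689 for the third. All tissues were harvested in the same month, but temperature at harvest was not given in the sources used here.

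Transporters with the same description also divided. Of 7 compared sulfate transporter unigenes 3 (42.9%) were high in root and 1 (14.3%) low, beside 9.76% and 10.3% of all unigenes, and by TPM 1 was high and 1 low. TR40054|c0_g1_i1 had 68 fragments in flower, 29 in bud and 3 in leaf against 337 in root and was 11.05-fold (8.49 to 14.6) higher in root than in flower. TR44616|c0_g1_i1 had 189, 225, 785 and 0 fragments, and flower was at least 28.3-fold above root. The nitrate transporter TR43261|c0_g1_i1 had 415, 108, 171 and 3 fragments, and bud was 16.3-fold (5.42 to 80.2) above root.

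The purine permease TR32400|c0_g1_i3, of a family that carries nucleobases and some alkaloids, had 4, 1, 5 and 85 fragments and was 21.3-fold (8.78 to 67.3) higher in root than in leaf. The ABC transporter TR48492|c0_g1_i1, of a family of ATP-driven pumps, had 519, 241, 72 and 0 fragments, and leaf was at least 19.2-fold above root. Of 12 compared ABC transporter unigenes 2 (16.7%) were high and 3 (25%) low, beside 9.76% and 10.3% of all unigenes. Of 12 unigenes for peptide and metal chelate transporters 1 (8.33%) was high and 3 (25%) low, beside the same shares. None of the 5 SWEET-type sugar exporters was high, 1 (20%) was low, and all 5 had 0 root fragments. None of the 4 PHO1-type phosphate exporters, which load phosphate into the xylem, was called, and their root levels lay between 0.994 and 1.94.

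Unigenes for markers of shoot and flower were read to check the tissue labels. FRUITFULL (FUL) genes are MADS-box factors of the shoot and flower. The 7 compared unigenes came from 3 Trinity genes. Of these unigenes 4 (57.1%) were low in root and 3 (42.9%) high, beside 10.3% and 9.76% of all unigenes. TR39420|c0_g1_i1, described as FUL 2, had levels of 15.4 in flower, 11.8 in bud and 60.5 in leaf against 0.237 in root, and bud was 49.7-fold (8.74 to 1982) above root on 1 root fragment. TR40910|c0_g1_i2, described as FRUITFULL-like, had 1.88, 0.136, 0.955 and 26.1 and was 13.9-fold (7.84 to 26.4) higher in root than in flower. The TR39420 groups were thus low in root, and the 3 isoforms of the TR40910 group went against the marker.

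Of 7 compared photoreceptor unigenes 1 (14.3%) was high in root and 1 (14.3%) low on the TMM scale, beside 9.76% and 10.3% of all unigenes. By TPM 1 was high and 3 were low, beside 5.68% and 16.7% of all unigenes. With library totals 4 were low. Phytochrome A, TR46150|c1_g1_i1, a red and far-red light receptor abundant in dark-grown plants, had 8 fragments in flower, 81 in bud and 0 in leaf against 331 in root, and was 9.04-fold (7.07 to 11.7) higher in root than in bud. Phytochrome B, TR47460|c0_g1_i1, the main receptor in light-grown plants, had levels of 12.1, 9.78, 12.3 and 1.73, with bud 5.66-fold (3.70 to 9.08) above root. A second phytochrome B, TR47849|c0_g1_i2, had 12.4, 13.9, 25.1 and 21.7 and was not called. The plastid protein list, with subunits that bind rubisco and plastid ribosomal proteins, had 0 of 13 unigenes called. Its rubisco-binding isoform TR37670|c3_g1_i1 had 9.66, 12.7, 80.2 and 13.3, so leaf stood above the other 3 libraries. No root marker was annotated in the tables used. The root label could be checked only by what root lacked, and the shoot markers were mixed, so they did not settle it.

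Tubulin, actin and ubiquitin are housekeeping proteins of most cells. Of 20 tubulin and actin unigenes 6 (30%) were high in root and 0 low on the TMM scale, and 3 were high by TPM, beside 9.76% and 5.68% of all unigenes high on these scales. Actin TR43897|c6_g1_i2 had levels of 272, 190, 288 and 780 in flower, bud, leaf and root and was 2.71-fold (2.57 to 2.85) higher in root than in leaf. Of 12 ubiquitin unigenes 0 were called, with a median log2 ratio of root to the highest aerial library of -0.0098. Of 46 pentatricopeptide repeat unigenes, which act in RNA processing of organelles, 1 (2.17%) was high and 2 (4.35%) low, beside 9.76% and 10.3% of all unigenes.

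**Figure D4:**
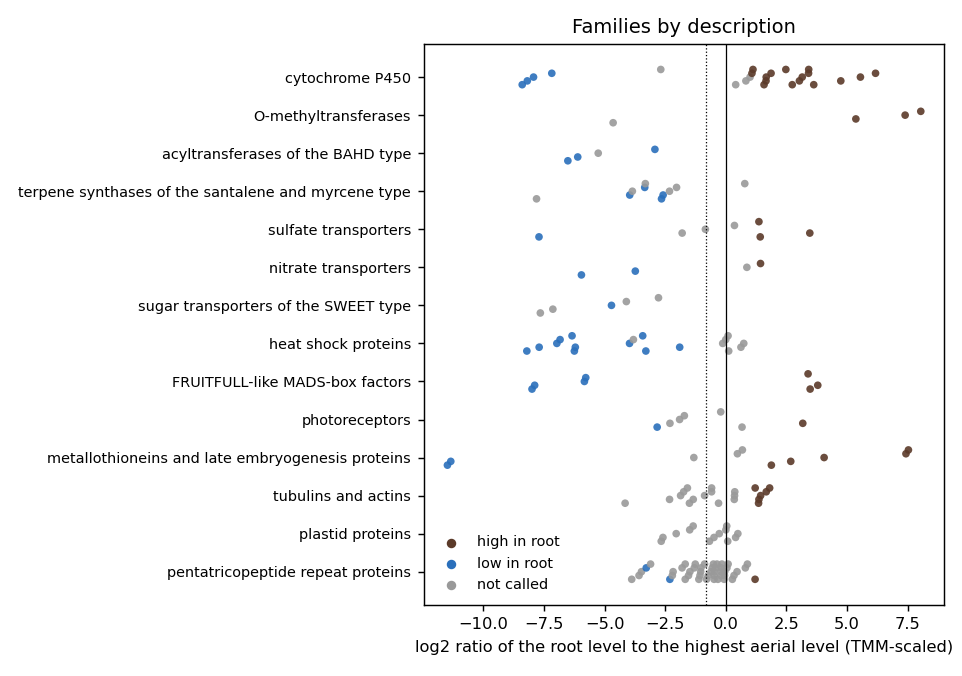
Log2 ratio of the root level to the highest aerial level (horizontal axis, TMM-scaled) for the compared unigenes of 14 description families, 1 point per unigene, brown for high and blue for low in root. The solid line marks equal levels and the dotted line the median of all 29670 unigenes, -0.81. All families but the BAHD-type acyltransferases and the SWEET-type transporters hold points on both sides of the solid line. The called heat shock unigenes all lie on the low side.

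Methionine synthase remakes methionine, the precursor of the methyl donor S-adenosylmethionine. TR40040|c1_g1_i2, whose description names a methionine synthase gene of Arabidopsis thaliana, had levels of 212 in flower, 165 in bud and 214 in leaf against 902 in root and was 4.21-fold (4.03 to 4.41) higher in root than in leaf. It was the only one of 5 such unigenes called high (20%), beside 9.76% of all unigenes. Phenylalanine ammonia-lyase, the entry enzyme of phenylpropanoid synthesis, had 2 compared unigenes. TR34694|c0_g1_i1, with levels of 68.4, 75.7, 48.4 and 206, was 2.72-fold (2.37 to 3.12) higher in root than in bud and was not called by TPM. TR48094|c2_g3_i1 peaked in bud at 136 and stood at 3.79 in root.

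Terpene synthases of the santalene and myrcene type make volatile terpenes. Of their 10 compared unigenes 4 (40%) were low in root and 0 high, beside 10.3% and 9.76% of all unigenes. The 4 were isoforms of 1 Trinity gene component, TR45580|c1_g3, with bud as the highest library. TR45580|c1_g3_i1 had levels of 8.85 in flower, 18.2 in bud and 7.55 in leaf against 1.79 in root. The myrcene synthase-like TR47604|c1_g4_i5 had a level of 308 in flower against 0.310 in bud, 0 fragments in leaf and a level of 1.37 in root, and was not called because root was not below bud and leaf. TR30556|c0_g1_i2, of the same description, was highest in root on 20 fragments without meeting the rule.

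Of 7 auxin response factor unigenes, which switch on genes in response to auxin, 3 (42.9%) were high in root on the TMM scale, beside 9.76% of all unigenes, and 0 were high by TPM. The 3 were isoforms of TR44078|c1_g1, and TR44078|c1_g1_i5 had levels of 7.67 in flower, 14.5 in bud and 11.04 in leaf against 30.7 in root. Of 26 receptor-like kinase unigenes 2 (7.69%) were high and 1 (3.85%) low, beside 9.76% and 10.3% of all unigenes. The cysteine-rich receptor kinase TR22563|c0_g1_i1 was 22.7-fold higher in root than in leaf, on 36 root fragments and at most 2 in any aerial library. Of 16 cell wall enzyme unigenes 0 were called, and several were near 0 everywhere but in bud, such as the endoglucanase TR40489|c0_g1_i1 with 605 fragments in bud and 0 in the other libraries.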

How the data were processed

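For each of the 4 tissues of 3-year-old Aconitum carmichaelii, 1 strand-specific library was sequenced. The authors trimmed the paired reads with Trimmomatic, pooled the 4 tissues for a Trinity assembly, removed redundancy with CD-HIT-EST, aligned reads with Bowtie 2 and estimated abundance with RSEM. The deposited expected counts are whole numbers of fragments without normalization, and the treatment of fragments matching several unigenes was not given in the sources used here. The deposited TPM sum to the same total in every library. The FPKM, also by the authors, divide the count by effective length and library total. Recomputed from the counts, all 44585 FPKM and 35437 TPM values of at least 10 were within 0.0501% of the deposited ones. The joint FPKM table and the isoform percentages were not used.

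Unigenes over 500 bases with at least 40 summed fragments were kept. TMM factors (edgeR 4.0.16, over these unigenes, with full library totals) were 0.779 for root, and 1.18, 1.25 and 0.868 for flower, bud and leaf. Ratios have exact conditional binomial 95% intervals (scipy 1.17.1). A count of 0 stands for up to 3 fragments. Procedures were tested on simulated libraries. Alternatives were TPM, library totals, DESeq2 1.42.0 size factors and TMM over all unigenes, other minima, folds and lengths, sums over Trinity genes, thinning to the root total (5 draws) and leaving out each aerial library.

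The members and lists were chosen with earlier results of these data known. Named unigenes were the pathway and P450 unigenes, the 10 described unigenes with the largest lower interval limit in each direction and the 5 with the highest root level (1 per Trinity gene), the extremes of each description family, and 2 unigenes without a description in each direction. Methionine synthase, actin and other list members named beside these were chosen after their values were seen. Descriptions and pathway names are the paper's, from incomplete copies, so no list was tested for enrichment. No sequence was used here.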

Additional observations from a re-analysis of the deposited data

Results flagged for a closer look

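Unigenes of up to 500 bases lay outside the comparison. Of the 4468 such unigenes with at least 40 summed fragments, 588 were called high in root (13.2%) and 319 low (7.14%) under the same rule. The high share is set beside 9.76% of the compared unigenes, and the low share beside 10.3%. By TPM 386 were high and 504 low. Root exceeded every aerial library at least 10-fold for 91 of them (2.04%), beside 1.14% of the compared unigenes. These short unigenes held 6.26% of the root fragments. Their descriptions were not read, and fragments of longer transcripts among them were not told apart.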

How the results depend on the processing

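With TPM, 1685 unigenes were high and 4964 low in root, the median log2 ratio was -1.28 to the highest and -0.0047 to the lowest aerial library, the latter with a changed sign, and the low unigenes held 2.04% of the root fragments. With library totals the values were 1615, 4904, -1.35, 0.14 and 1.99%. DESeq2 size factors kept both counts within 1.5 times, at medians of -0.71 and 0.55. Of the 49 unigenes that were called in the pathway and P450 lists or named by the rule for described unigenes, 0 changed direction under 4 scalings and 3 left-out libraries. Nearly all of the 49 were chosen as at least 2-fold beyond every aerial library. The scalings shifted root by less, so this outcome was largely fixed in advance. Uncalled pathway unigenes were not among the 49, and by TPM DXS11, ISPG, PMK1 and PMK3 turned from above to below the highest aerial library and 7 turned against the lowest. A minimum of 20 or 100 fragments gave a median to the highest aerial library of -0.93 or -0.66. Lengths over 1000 bases left 1744 high unigenes, since fewer were tested. A 4-fold minimum left 964 high and 1553 low, and no minimum fold gave 5067 high. Leaving out 1 aerial library gave 3380 to 4044 high and 3820 to 5194 low (5194 without leaf, over 1.5 times the count with it), with medians of -0.66 to -0.55 and 0.12 to 0.33. TMM over all unigenes, sums over Trinity genes, thinning and no minimum length kept counts within 1.5 times. No paired analysis was possible because each tissue has 1 library. A root count of 0 allows 3 fragments, and thinning the aerial libraries to the root total left 2915.2 low calls (mean of 5 draws).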
